A study of Mus musculus with 12 samples.

Results

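Endothelial cells were described in 6 tumours grown from 4T1, a mouse mammary carcinoma line: the cells that the authors' annotation of the unenriched libraries calls endothelial. There were 452 of them among 60657 annotated cells (0.745%), 68 from the tumour of Clone E, 48 from EM1, 147 from EM2, 37 from EM3, 54 from M and 98 from the parental tumour. 4T1 is a transplantable line of BALB/c origin that serves as a model of triple-negative breast cancer. Clones E, EM1, EM2, EM3 and M were each grown from a single 4T1 cell, so each stands for 1 clone, and the parental line is the uncloned population. Cells of each were implanted orthotopically, and the tissue sampled was the mammary fat pad of female BALB/c hosts given as 9 to 11 weeks old. The labels give no treatment for any group, and the groups differ in the implanted cells, while the endothelial cells are those of the host. Each group held 1 tumour, measured in a library of the whole digest and in a library enriched by magnetic beads for CD45, which leukocytes carry on their surface. The series asks whether immune cells in the tumour follow the place of the tumour cells between epithelial and mesenchymal states.

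Endothelial cells line blood vessels. Growing tumours draw in vessels through VEGF, a secreted factor that acts on endothelial receptors such as KDR, and the sprouts are led by tip cells, which express Dll4 and through it hold their neighbours back from the same role by Notch signalling. Endothelial cells of small veins carry the selectins and adhesion molecules by which leukocytes leave the blood, and interferon gamma from T and NK cells induces chemokines and antigen presentation genes in them.

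The endothelial cells held 3499423 UMIs, counts of single captured RNA molecules, between 218152 in EM1 and 1140673 in the parental tumour. The median per endothelial cell ran from 3718 UMIs in Clone E to 8058 in M, and the fewest genes in any cell of a library from 250 to 650, a limit set by the authors before deposit. Levels are given as CPM, in which the UMIs of a gene are summed over the endothelial cells of a tumour and scaled to a common total. Unless a tumour is named, 6 values follow the order Clone E, EM1, EM2, EM3, M, parental. With 1 tumour per group no test between tumours was possible, and all 95% intervals (exact Poisson for CPM, Clopper-Pearson for shares) cover counting error only. Droplet barcodes recurred between some libraries: 16.66% of the barcodes of the smaller library were shared between Clone E and EM3, and 13.5% between EM1 and EM2, against 1.15% to 1.91% for other pairs of tumours. Of the 452 endothelial cells, 141 had a droplet barcode also found in another library. With the sample tag included, 10 had such a barcode.

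Most of the annotated cells carried the markers of the label. UMIs of at least 2 of Pecam1 (CD31, a junction protein), Cdh5 (VE-cadherin), Kdr (the main VEGF receptor) and Egfl7 (a secreted endothelial factor) were found in 398 of the 452 cells (88.1%), and all 4 in 243, while 14 cells had none. By tumour, 79.4% to 94.4% of endothelial cells had at least 2, against 0% to 3.49% of fibroblasts, 0.0702% to 1.14% of tumour cells, 0.894% to 4.05% of macrophages, 0% to 0.59% of T and NK cells, 0% to 0.661% of granulocytes and 0% to 7.35% of the 256 cells annotated as unknown. The median depth of those classes ran from 5349 to 12310.0 UMIs in fibroblasts, 6441 to 15212 in tumour cells, 5041 to 9515 in macrophages, 1098 to 2088 in T and NK cells, 779.5 to 1459.5 in granulocytes and 6981 to 20996 in the unknown cells.

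Some of the annotated cells also carried genes of other classes. Clustering of the endothelial cells at a finer setting set apart 32 cells led by macrophage genes such as C1qa, 24 led by tumour cell genes such as Krt8, with a median of 22534 UMIs, and 12 led by fibroblast genes such as Col1a1. These 68 mixed cells, numbering 10, 3, 25, 3, 11 and 16 by tumour, held 32.1% of the endothelial UMIs. UMIs of Ptprc, the gene of CD45, were found in 52 of all annotated endothelial cells, from 4.17% in EM1 to 19.1% in Clone E. Members without any UMI of Ptprc, Epcam or Col1a1 numbered 30, 39, 63, 20, 27 and 36 by tumour. The doublet caller used here marked none of the endothelial cells. Results are given over all annotated cells, and for part of the genes and lists also without the mixed cells, an alternative chosen after seeing the data. Where only the first is given, the value without the mixed cells may differ.

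Summed levels of marker lists show how much RNA of other classes the endothelial sums held. The fibroblast markers summed to 493, 303, 3585, 107, 343 and 515 CPM in endothelial cells and to 403, 103, 280.4, 106, 226 and 311 CPM without the mixed cells, against 71744 to 158470.0 CPM in fibroblasts. The macrophage markers summed to 979, 197, 708, 1393, 1290.1 and 463 CPM, and to 632, 158, 247, 1179, 229 and 252 CPM without the mixed cells, against 11248 to 21739 CPM in macrophages. The granulocyte markers, which include the abundant S100a8 and S100a9, summed to 4187, 87.1, 459.8, 347, 2640.1 and 381 CPM, highest in Clone E and M, and to 948, 93.6, 264, 391, 2743 and 128 CPM without the mixed cells, highest in M and then in Clone E. The tumour epithelial markers summed to 309, 160.4, 550.1, 138, 75.2 and 642 CPM, and to 312, 138, 135, 116, 64.1 and 253 CPM without the mixed cells, against 1965 to 11582 CPM in tumour cells. The T and NK cell markers summed to 194, 77.9, 41.9, 67.1, 1.93 and 22.8 CPM, highest in Clone E, and to 229, 83.8, 48.8, 82.1, 3.05 and 9.11 CPM without the mixed cells, against 1957 to 5082 CPM in T and NK cells. Pericytes, the contractile cells that wrap small vessels, have no class of their own in the annotation, and their markers summed to 105, 279.6, 438, 47.3, 195 and 576 CPM in endothelial cells and to 74.8, 54.2, 88, 53.1, 58 and 82 CPM without the mixed cells.

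Endothelial cells were a small share of every tumour, largest in EM2 and smallest in M and EM3. They made up 0.627% (0.487 to 0.794) of the cells for Clone E, 0.727% (0.536 to 0.962) for EM1, 1.51% (1.27 to 1.77) for EM2, 0.437% (0.308 to 0.602) for EM3, 0.412% (0.309 to 0.537) for M and 0.93% (0.756 to 1.13) for the parental tumour. The interval of EM2 overlapped with none of the others, and those of EM3 and M overlapped with each other. Tumour cells made up 7.22%, 43.1%, 33.9%, 23%, 35.5% and 56.1% of the cells. Of the cells not annotated as tumour, endothelial cells were 0.675%, 1.28%, 2.28%, 0.568%, 0.638% and 2.12%, so that the parental tumour lay close to EM2. Of endothelial cells and fibroblasts together, which are the stromal classes, endothelial cells were 33.5% (27 to 40.4) for Clone E, 48% (37.9 to 58.2) for EM1, 39.3% (34.3 to 44.5) for EM2, 30.6% (22.5 to 39.6) for EM3, 17% (13.1 to 21.6) for M and 27.5% (23 to 32.5) for the parental tumour. EM1 was thus highest and M lowest among stromal cells, with intervals that did not overlap. How well each cell class survived digestion was not tested.

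**Figure D1:**
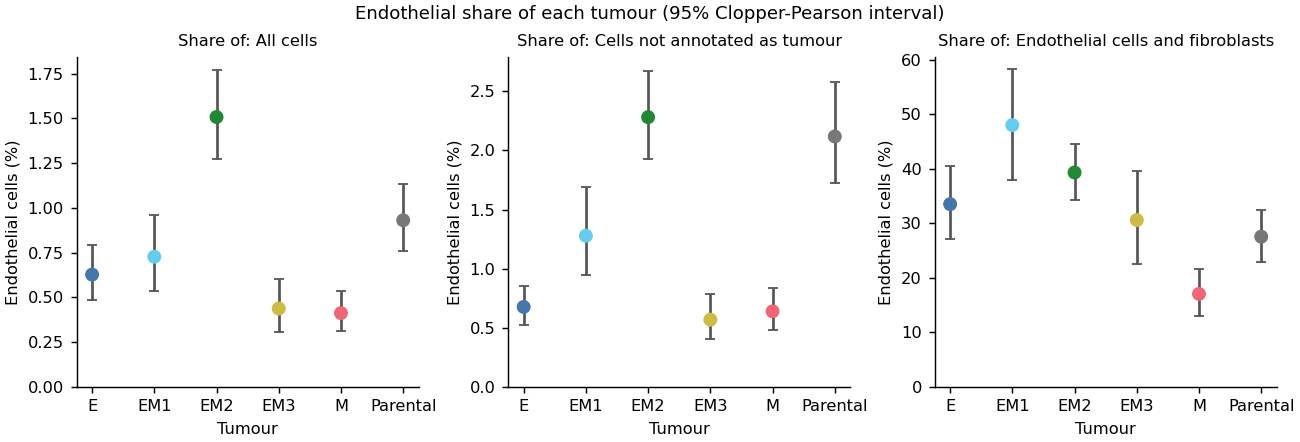
Share of endothelial cells in each of the 6 tumours, in percent of all cells (left), of cells not annotated as tumour (middle) and of endothelial cells and fibroblasts together (right); points are shares of 1 tumour and bars 95% Clopper-Pearson intervals. EM2 is highest at 1.51% of all cells, while EM1 is highest at 48% of the stromal cells and M lowest at 17%.

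A definition by genes gave another number of cells. Cells with at least 2 of the 4 markers and no UMI of Ptprc, which encodes CD45, numbered 55, 42, 143, 30, 110 and 135, of which 43, 37, 118, 24, 42 and 86 were annotated as endothelial. In M, 49 of the 110 were annotated as tumour cells, and in the parental tumour 31 of 135. By this definition the share in M was 0.838% and that in the parental tumour 1.28%.

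Genes that set endothelial cells apart in every tumour were chosen by their margin over the other classes. Of 2426 genes with at least 100 CPM in the endothelial cells of the median tumour, 143 were at least 2-fold above every other annotated class of the same library in all 6 tumours, and all 19 measured identity genes were among them. These values describe the annotation, which was made on the same genes, and carry no test. The widest margins over the next class, as the median over tumours of the log2((CPM + 10) ratio), belonged to Cdh5 with 6.05, Plvap (the diaphragm protein of fenestrated vessels) with 5.90, Cldn5 (a tight junction claudin) with 5.90, Emcn (endomucin, a surface sialomucin) with 5.80 and the adhesion receptor gene Adgrl4 with 5.59. They were followed by Myct1 with 5.39 and Gpihbp1, which carries lipoprotein lipase to the vessel surface, with 5.33. The remaining genes of the 15 were Prnd, Esm1, Egfl7, Robo4, Tie1, Sox7, Tspan7 and Cyyr1, with margins from 5.22 down to 4.76.

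Levels of the identity genes were close between tumours. Pecam1 stood at 2259.8 CPM for Clone E, 1999 for EM1, 2120.4 for EM2, 2600.1 for EM3, 2042 for M and 1891 for the parental tumour. Cdh5 stood at 1159 CPM for Clone E, 1426 for EM1, 1512 for EM2, 1409 for EM3, 1552 for M and 1504 for the parental tumour, lowest in Clone E (1039 to 1289) and highest in M (1447 to 1663). Kdr lay between 276 CPM in EM2 and 341 in M, with overlapping intervals. The level of the identity list, the mean log2(CPM + 10) of its 19 measured genes, was 9.04, 9.06, 9.09, 9.20, 9.11 and 9.01, a range of 0.19. Without the mixed cells it was 9.13, 9.08, 9.30, 9.24, 9.34 and 9.35, a range of 0.27. The parental tumour thus went from lowest to highest. An exception was Cldn5, which stood at 962, 1311, 904, 395, 893 and 1329 CPM and was lowest in EM3 (interval 321 to 479.9), below every other tumour. Vwf, the clotting protein stored in endothelial granules, was highest in EM3 at 189 CPM (95% interval 139.6 to 251) and lowest in EM1 at 55 CPM (95% interval 28.4 to 96.1). Over the 48 sums of cell class by tumour, the genes whose pattern was most like that of Cdh5 among 8917 genes were Rasip1 (Spearman's rho 0.78), Adgrl4 (0.71), Fry (0.71), Eif4e3 (0.69) and Plvap (0.69), a description over sums that share libraries.

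Transcription factors of the lineage were present throughout. Erg, an ETS factor that maintains endothelial identity, stood at 343, 335, 309, 260.4, 276 and 315 CPM, and Sox17, of the SOX group that specifies arteries and sprouts, at 333, 399, 321, 209, 278 and 309 CPM. Sox18, of the same group, was highest in the parental tumour at 546 CPM (95% interval 504 to 591) and lowest in EM3 at 181 CPM (95% interval 133 to 242). Klf2, a factor that flowing blood induces and that also responds to handling of cells, stood at 1016 CPM for Clone E, 1233 for EM1, 399 for EM2, 971 for EM3, 345 for M and 345 for the parental tumour. It was high in Clone E, EM1 and EM3 and low in EM2, M and the parental tumour, but 56.1% of its UMIs in EM3 came from 1 cell. Gata2 was highest in EM3 at 122 CPM (95% interval 83.1 to 174), against 31.6 to 55 CPM in the other tumours.

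Of the ligands of vessel growth, Vegfa, Angpt1 and Cxcl12 were higher in fibroblasts than in endothelial cells, and Pgf, Angpt2 and Apln were found in endothelial cells. Vegfa reached its highest values in macrophages, and Angpt1 in some tumours was higher in tumour cells than in fibroblasts. Vegfa lay at 557 to 873 CPM in tumour cells, 852 to 1262 CPM in fibroblasts and 882 to 1624 CPM in macrophages, against 41.3 to 245 CPM in endothelial cells, where it was 137, 44.3, 65, 96.6, 33.6 and 72.9 CPM without the mixed cells. Pgf, a VEGF family ligand of Flt1, had the opposite distribution, with 181 to 1192 CPM in endothelial cells and 68.6 to 155 CPM in fibroblasts. Within endothelial cells Pgf stood at 313 CPM for Clone E, 1192 for EM1, 457 for EM2, 181 for EM3, 451 for M and 348 for the parental tumour, so that EM1 (interval 1051 to 1346) lay above all the others. Angpt2, the ligand that loosens vessels for sprouting, was at 85 to 442 CPM in endothelial cells and Apln, the ligand of the apelin receptor, at 214 to 659.5 CPM. Angpt1, the stabilising ligand of the same receptor as Angpt2, was nearly absent from endothelial cells at 1.93 to 8.38 CPM and lay at 5.04 to 19.6 CPM in fibroblasts, above the endothelial level in all 6 tumours, and at 1.14 to 54.2 CPM in tumour cells. Cxcl12, the ligand of Cxcr4, was at 229 to 813 CPM in fibroblasts and 59.6 to 139 CPM in endothelial cells.

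The receptors varied little between tumours. Flt1, a VEGF receptor that also acts as a decoy, stood at 669, 811, 832, 856, 636 and 754 CPM, and its coreceptor Nrp1 at 112, 206, 169, 142, 160.1 and 149 CPM. Tie1, a receptor gene related to Tek, stood at 353, 477, 472, 497, 471 and 387 CPM. Tek, which encodes the angiopoietin receptor, stood at 200.5, 124, 153, 178, 210.2 and 190.2 CPM, lowest in EM1 (81.6 to 180.1). Aplnr, the apelin receptor, was between 153 CPM in Clone E and 268 in EM2. The level of the VEGF list over all its measured members was 7.06, 7.03, 7.16, 6.89, 7.13 and 7.18, a range of 0.28.

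**Figure D2:**
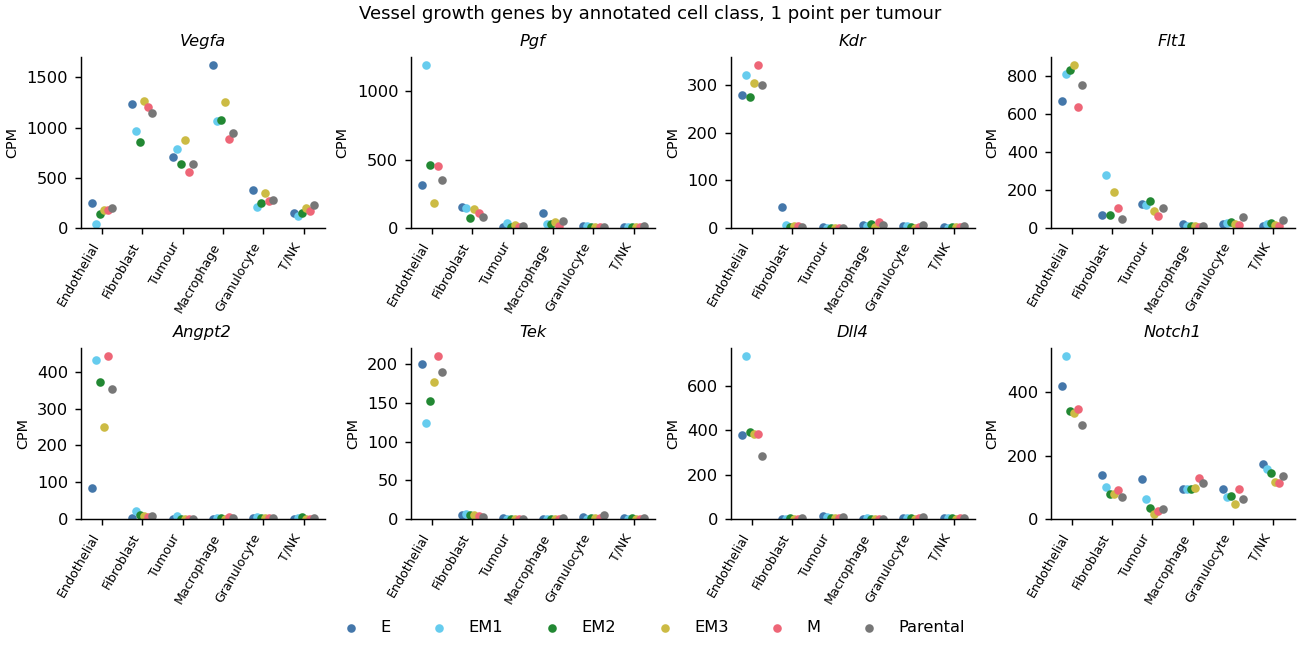
CPM of 8 genes of vessel growth (Vegfa, Pgf, Kdr, Flt1, Angpt2, Tek, Dll4, Notch1) in 6 annotated cell classes; each point is the sum over the cells of a class in 1 tumour, coloured by tumour. Vegfa is highest outside endothelial cells, while Pgf, the receptors Kdr and Flt1, and Angpt2 and Dll4 are highest in endothelial cells.

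Of the Notch genes, Dll4, the ligand of tip cells, stood at 377 CPM for Clone E, 733 for EM1, 391 for EM2, 383 for EM3, 384 for M and 283 for the parental tumour. It was highest in EM1 (interval 624 to 856) and lowest in the parental tumour (253 to 316). The receptor gene Notch1 stood at 418, 513, 342, 335, 347 and 297 CPM, also highest in EM1 (423 to 618), and the ligand gene Jag1 lay between 232 and 302 CPM. Among the targets, Hes1 was highest in EM1 at 348 CPM (95% interval 274 to 436) and lowest in M at 145 CPM (95% interval 114 to 181), but 1 cell held 48.7% of its UMIs in EM1. Nrarp, a feedback inhibitor of Notch, was highest in M at 202 CPM (95% interval 166 to 245) and lowest in the parental tumour at 82.4 CPM (95% interval 66.6 to 101). Heyl was at 0 in EM2 and EM3 and at most 6.8 CPM elsewhere.

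Of the 14 tip cell genes, 11 were lowest in the tumour of Clone E. Dll4 was lowest in the parental tumour, Pgf in EM3 and Ramp3 in EM1. The share of all genes that were lowest or highest in each tumour was not computed. Such counts, here and for the vein, interferon and division lists below, therefore stand without a background. The UMI sums behind them also differed between tumours. Esm1, a proteoglycan released by tip cells, stood at 336 CPM for Clone E, 1379.8 for EM1, 845 for EM2, 967 for EM3, 1886 for M and 980.1 for the parental tumour, and the interval of Clone E (273 to 409.6) lay below those of all other tumours. Without the mixed cells it stood at 391, 1345, 871, 1097, 2300.4 and 1510.4 CPM. In Clone E 43.4% of its UMIs came from 1 cell. Angpt2 stood at 85 CPM for Clone E, 431 for EM1, 372 for EM2, 249 for EM3, 442 for M and 354 for the parental tumour, with intervals of 55 to 125 for Clone E and 386 to 503 for M. Apln stood at 214, 559, 639, 552, 659.5 and 398 CPM, lowest again in Clone E (165 to 274). Cxcr4, a chemokine receptor of sprouting cells, stood at 401, 1384, 883, 726, 978 and 983 CPM, lowest in Clone E (332 to 480.2) and highest in EM1 (1233 to 1549.6). The basement membrane protein gene Nid2 stood at 231, 669, 415, 272, 366 and 291 CPM, highest in EM1. Adm, which encodes the vessel hormone adrenomedullin, was lowest in Clone E at 30.6 CPM (95% interval 14 to 58.1) and highest in EM2 at 142 CPM (95% interval 121 to 167). Unc5b, a guidance receptor, was lowest in Clone E at 54.4 CPM (95% interval 31.1 to 88.3) and highest in EM1 at 188 CPM (95% interval 135 to 255). The level of the 14 genes of the tip cell list was 7.54, 8.87, 8.46, 8.20, 8.49 and 8.21, with EM1 highest. Without the mixed cells it was 7.67, 8.87, 8.59, 8.39, 8.63 and 8.63.

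Between pairs of tumours, a gene was called where its CPM, with 10 added to each, differed at least 2-fold, among genes with at least 50 CPM in 1 of both sums and 20 UMIs over both. Clone M and Clone E carry the names of the mesenchymal and epithelial ends, EM3 was compared with E because they shared droplet barcodes (M and E shared 1.91%), and EM2 with EM1 for the same reason, a pair added after seeing the data. The comparisons of M and of EM3 share the Clone E tumour. Of the 14 tip cell genes 12 could be compared between M and E, and 6 were called higher in M (Esm1, Apln, Angpt2, Cxcr4, Adm and Unc5b) and 0 lower, where 2.89% of all 5156 genes were called higher and 4.79% lower. The median log2 ratio was 0.88 over the list and 0.02 over all genes. Without the mixed cells the same 6 genes were called, with a median of 1.00, where 3.07% of all genes were called higher. Between EM3 and E 13 could be compared, and 4 were higher in EM3 (Esm1, Apln, Angpt2 and Adm), where 3.01% of 5142 genes were, with medians of 0.63 over the list and 0.01 over all genes. Without the mixed cells 4 were higher, where 3.14% of all genes were. Between EM2 and EM1 13 could be compared, and 2 were lower in EM2 (Pgf and Kcne3) and 0 higher, where 1.65% of 5038 genes were lower and 3.75% higher, with medians of -0.63 over the list and -0.04 over all genes. With the mixed cells left out, 3 were lower (Pgf, Unc5b and Kcne3), where 1.98% of all genes were. A gene of low level enters such a count only through the tumour in which it is high.

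Of the 10 genes of the vein list, 7 were lowest in EM1 and 3 in Clone E, and Vcam1, given below, was highest in EM1. Selp, which encodes P-selectin of venules, stood at 809 CPM for Clone E, 229 for EM1, 1071 for EM2, 892 for EM3, 719 for M and 760.1 for the parental tumour, and EM1 (interval 170.1 to 302, with 80% of the UMIs from 1 cell) lay below all others. Ackr1, the chemokine scavenger of venules, stood at 173, 55, 327, 316, 226 and 153 CPM, lowest in EM1 (28.4 to 96.1) and highest in EM2 (293 to 363). Sele, the inducible E-selectin, stood at 167, 64.2, 217, 268, 143 and 117 CPM, and Lrg1, a secreted glycoprotein of inflamed venules, at 931, 344, 735, 1128, 856 and 849 CPM, both lowest in EM1. The level of the vein list was 7.74, 7.09, 7.98, 8.15, 7.80 and 7.68, and 7.86, 7.09, 8.08, 8.17, 7.88 and 7.90 without the mixed cells. Of 9 vein genes compared between EM2 and EM1, 4 were higher in EM2 (Ackr1, Selp, Sele and Lrg1) and 0 lower, where 3.75% of all genes were higher, with a median of 0.84 over the list. Between M and E 0 of 10 were higher and 0 lower, with a median of 0.08.

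The fatty acid handling genes of capillaries were low in EM1 and EM3. Fabp4, a fatty acid carrier, stood at 2776 CPM for Clone E, 1128 for EM1, 2688 for EM2, 1164 for EM3, 2727 for M and 4238 for the parental tumour. Intervals were 991 to 1278 in EM1 and 1035 to 1305 in EM3, below those of the other tumours. Cd36, the fatty acid uptake receptor, stood at 737, 188, 586, 174, 509 and 847 CPM, with EM1 (135 to 255) and EM3 (126 to 233) again apart. The water channel gene Aqp1 stood at 1886, 692, 1563, 1787, 1928 and 1541 CPM, lowest in EM1 alone (586 to 812). Gpihbp1 went the other way, at 347, 678, 493, 446, 484 and 387 CPM, highest in EM1 (574 to 797). Of 8 capillary genes compared between EM2 and EM1, 4 were higher in EM2 (Cd36, Fabp4, Cd300lg and Aqp1) and 1 lower (Btnl9), where 3.75% of all genes were higher and 1.65% lower, with a median of 1.04 over the list. In the set without mixed cells 5 of 9 were higher, Rgcc being added, and 0 lower, where 2.62% of all genes were higher and 1.98% lower. Of 8 compared between EM3 and E, 3 were lower in EM3 (Cd36, Fabp4 and Cd300lg), where 5.08% of all genes were, with a median of -0.79. Adipocytes of the fat pad also express Cd36 and Fabp4, and the adipocyte markers summed to 6.8, 0, 0, 0, 1.93 and 0 CPM in endothelial cells; their part in the result was not tested.

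**Figure D3:**
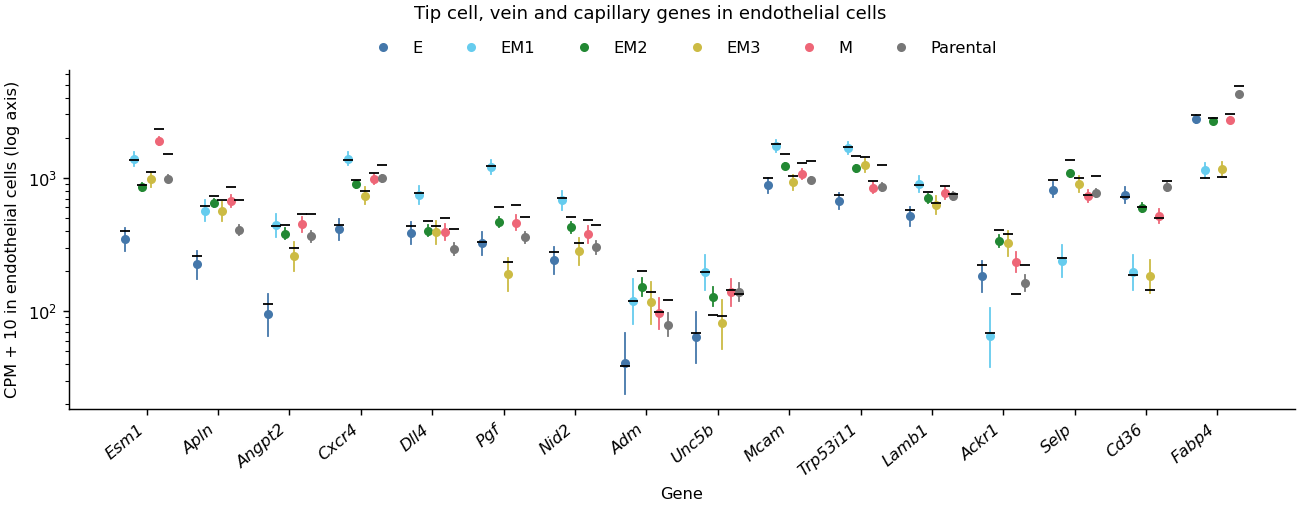
CPM + 10 (log axis) of tip cell, vein and capillary genes in the endothelial cells of each tumour; points are 1 tumour, bars 95% Poisson intervals and black ticks the value without the mixed cells. Clone E is lowest for Esm1, Apln and Angpt2, and EM1 is lowest for Ackr1, Selp and Fabp4.

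Of the 10 arterial genes 3 to 5 exceeded 100 CPM in a tumour, and of the 8 lymphatic genes 0 to 2. Gja5, a connexin of arteries, stood at 57.8, 41.3, 20.5, 7.89, 11.6 and 9.64 CPM, and Sema3g at 91.8, 68.8, 30.7, 19.7, 52.1 and 109.6 CPM. Of the arterial list Efnb2, an ephrin also found on sprouts, stood highest in M at 343 CPM (95% interval 295 to 398) and lowest in EM3 at 146 CPM (95% interval 103 to 201). Of the lymphatic genes, Prox1, the factor that specifies lymphatic identity, was at most 17.4 CPM. Ccl21a, the chemokine of lymphatic vessels, stood at 237 CPM in M, all of it from 1 cell, and at 0.877 CPM or 0 elsewhere. Mmrn1 and Reln, of the same list, stood at 59.8 and 21.2 CPM in M, and 77.4% of the Mmrn1 UMIs there came from 1 cell.

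As a list, interferon-induced genes were highest in Clone E, EM1 and EM2, lower in EM3, and lowest in M and the parental tumour. Single genes varied: of the 19 listed, 8 were lowest in the parental tumour, 5 in EM1, 3 in EM3 and 3 in M. In EM1 3 of the genes were at 0. Cxcl9, a chemokine that draws in activated T cells, stood at 710.2 CPM for Clone E, 449 for EM1, 691 for EM2, 126 for EM3, 30.9 for M and 64 for the parental tumour. The interval of Clone E was 617 to 813, that of EM3 86.4 to 178 and that of M 17.6 to 50.1, and 1 cell held 37.3% of its UMIs in Clone E. The guanylate binding protein gene Gbp4 stood at 486 CPM for Clone E, 270.5 for EM1, 274 for EM2, 178 for EM3, 73.3 for M and 51.7 for the parental tumour, from 409.6 to 572 in Clone E down to 39.4 to 66.7 in the parental tumour. Of the same family, Gbp2 stood at 313, 394, 301, 174, 108 and 107 CPM. Iigp1 and Irgm1, GTPases that act on vacuoles of parasites, stood at 333, 389.6, 250.4, 193, 79.1 and 40.3 CPM and 167, 193, 161, 122, 55.9 and 43 CPM.

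Among the regulators of the response, Irf1 was low in M and the parental tumour, and Irf7 was high in Clone E. Irf1, a factor that interferon gamma induces early, stood at 292, 541, 240.2, 268, 79.1 and 89.4 CPM, highest in EM1 (448 to 648). Irf7, a factor of the type I interferon loop, was highest in Clone E at 204 CPM (95% interval 156 to 262) and at most 75 CPM elsewhere. Isg15, a ubiquitin-like target of type I interferon, was also highest in Clone E at 156 CPM (95% interval 114 to 209). Ifit1 and Ifit3 were nearly absent, at 3.95 CPM or less in every tumour. Bst2, which tethers viruses at the membrane, varied less, at 741, 550.1, 582, 525, 544 and 455 CPM. The level of the 19 genes of the list was 7.0, 6.57, 6.55, 5.95, 5.63 and 5.38, and 7.07, 6.52, 6.72, 6.03, 5.73 and 5.61 without the mixed cells.

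Promoters of 3 of these genes are printed to show the short motifs to which interferon-activated factors are known to bind. They are the 120 bases before the gene start, 5′ to 3′ on the strand of the gene, from RefSeq (build GRCm38.p6), with the matches in capitals. The motifs searched, on both strands, were TTCNNNGAA, the GAS element, and the ISRE core that IRF factors bind, TTTC followed by any 2 bases and TTTC. Gbp2 lies at chr3:142620543-142620662 on the plus strand, with an ISRE match starting at -59 from the gene start. Irgm1 lies at chr11:48871421-48871540 on the minus strand, with overlapping ISRE matches at -30 and -24. Irf1 lies at chr11:53769894-53770013 on the plus strand, with a GAS match at -90.
Gbp2: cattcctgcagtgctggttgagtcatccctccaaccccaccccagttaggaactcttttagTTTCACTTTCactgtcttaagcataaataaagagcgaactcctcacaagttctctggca
Irgm1: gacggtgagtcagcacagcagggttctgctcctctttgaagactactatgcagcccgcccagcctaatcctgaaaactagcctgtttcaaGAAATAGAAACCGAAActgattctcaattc
Irf1: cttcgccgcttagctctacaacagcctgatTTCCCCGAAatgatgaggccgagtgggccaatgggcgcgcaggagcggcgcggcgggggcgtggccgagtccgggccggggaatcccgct
In windows of 300 bases around the gene start, a GAS match was present for 4 and an ISRE match for 10 of the 15 interferon list genes with a window, out of 19 listed. Some genes have more than 1 window, and a gene was counted where any of them held a match; the second window of Irf1 held none. Over all 27025 genes with a window, counted the same way, the shares were 9.55% for GAS and 3.99% for ISRE. A match is a description of the letters and no evidence of binding in these cells.

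Between M and E 14 interferon list genes could be compared, and 11 were lower in M and 0 higher, where 4.79% of all genes were lower, with a median log2 ratio of -1.44 over the list. Without the mixed cells 9 of 14 were lower in M, with a median of -1.65, where 5.61% of all 4921 genes were. Between EM3 and E 7 of 14 were lower in EM3, where 5.08% of all genes were, with a median of -1.07, and without the mixed cells 7, with a median of -1.10, where 4.87% of all 4780 genes were. Between EM2 and EM1 1 (Irf1) was lower and 0 higher of 14, where 1.65% of all genes were lower, with a median of -0.05. That call was lost without the mixed cells, where 0 were lower and 1 (Isg15) was higher, with a median of 0.09, against 2.62% of all genes higher and 1.98% lower. In the other cells of the same libraries, values are given for Cxcl9 and Iigp1, and for Tap1 and H2-K1 of the class I list. Each was highest there in Clone E or EM1 and low in M and the parental tumour. Tap1 stood there at 223, 158, 139, 114, 50.3 and 35.3 CPM and H2-K1 at 1019, 1075, 860.1, 727, 485 and 498 CPM. Cxcl9 stood at 93.9, 139.6, 126, 103, 16.3 and 6.42 CPM in those cells and Iigp1 at 14.3, 61.3, 30.2, 25, 7.57 and 3.28 CPM, below the endothelial level in all 6 tumours. Ifng, which encodes interferon gamma, was at 5.66 to 72 CPM in T and NK cells. The T and NK cell markers, given above, were also highest in the endothelial sums of Clone E. Their part in the result was not tested.

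Antigen presentation genes of class I were also lower in M and the parental tumour than in the others. The level of their list was 8.31, 8.40, 8.21, 7.95, 7.42 and 7.12, highest in EM1. H2-K1, a class I heavy chain, stood at 1026 CPM for Clone E, 1013 for EM1, 881 for EM2, 801 for EM3, 480.2 for M and 494 for the parental tumour, with intervals of 914 to 1149 for Clone E and 422 to 544 for M. The peptide transporter gene Tap1 stood at 292, 279.6, 188, 217, 92.6 and 36.8 CPM, lowest in the parental tumour (26.5 to 49.8). Nlrc5, the transactivator of class I genes, stood at 126, 138, 96.8, 71, 28.9 and 35.1 CPM. B2m, the common light chain, ranged from 306 CPM in the parental tumour to 661 in EM2. Of 9 class I genes compared between M and E, 3 were lower in M (H2-K1, Tap1 and Nlrc5), where 4.79% of all genes were, with a median of -0.73 over the list. Cd274, which encodes the T cell inhibiting ligand PD-L1, stood at 139 CPM for Clone E, 110.0 for EM1, 67.9 for EM2, 55.2 for EM3, 23.1 for M and 7.89 for the parental tumour, from 100.0 to 189 in Clone E to 3.61 to 15 in the parental tumour. It was the called gene among the 4 T cell inhibition genes compared between M and E, where 4.79% of all genes were lower.

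Class II genes depended on the mixed cells. Cd74, the invariant chain, stood at 1366, 545, 985, 904, 619 and 182 CPM over all annotated cells and at 1085, 557, 551, 783, 61 and 51.6 CPM without the mixed cells. H2-Aa, a class II heavy chain, stood at 551, 211, 498, 458, 334 and 95.6 CPM and 432, 192, 291, 425, 61 and 18.2 CPM without them. Most of both genes remained in Clone E without the mixed cells, and little did in M and the parental tumour. The macrophage markers, given above, were also highest in EM3 and Clone E without the mixed cells and lower in M and the parental tumour, but lower still in EM1, and their part in the result was not tested. Of 4 class II genes compared between M and E, 3 were lower in M, with a median of -1.11, and without the mixed cells 4, with a median of -3.90, where 4.79% and 5.61% of all genes were. In the other cells of the libraries Cd74 stood at 9857, 4560.2, 4619, 7026, 1899.5 and 1035 CPM, and the part of free RNA in the droplets was not tested. Ciita, the transactivator of class II genes, was at most 13.8 CPM.

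**Figure D4:**
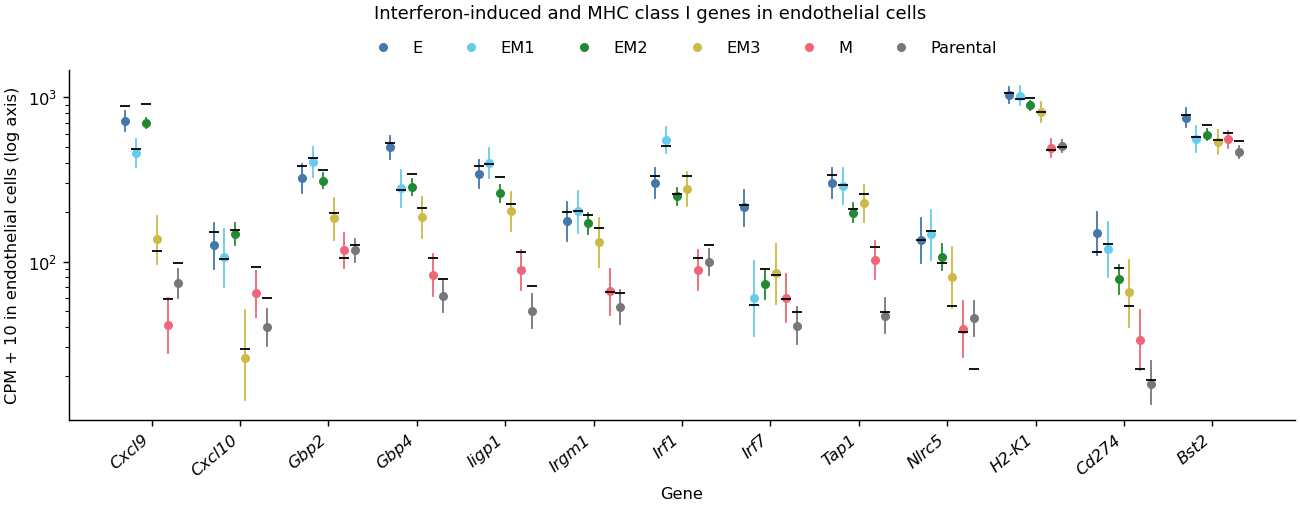
CPM + 10 (log axis) of interferon-induced, class I and Cd274 genes in the endothelial cells of each tumour; points are 1 tumour, bars 95% Poisson intervals and black ticks the value without the mixed cells. For Gbp4, Tap1 and Cd274 the points of Clone E lie above those of M and the parental tumour.

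Genes that respond to digestion and handling also differed between tumours. Hspa1b, a heat shock chaperone, stood at 1268 CPM for Clone E, 719.7 for EM1, 590.1 for EM2, 825 for EM3, 102 for M and 422 for the parental tumour, and Fos, an immediate early factor, at 1852, 719.7, 470.1, 848, 617 and 390.1 CPM. Both were highest in Clone E, where the interval of Hspa1b was 1142 to 1403, against 76.6 to 134 in M. The level of the 10 genes of the list was 9.93, 9.59, 8.92, 9.45, 8.63 and 8.69. Of 10 compared between M and E, 4 were lower in M (Fos, Atf3, Hspa1a and Hspa1b), where 4.79% of all genes were, with a median of -0.81 over the list, and without the mixed cells 3, without Atf3. Between EM3 and E 1 (Fos) was lower in EM3, where 5.08% of all genes were, with a median of -0.43, and without the mixed cells 0, with a median of -0.09. Between EM2 and EM1 3 were lower in EM2 (Fosb, Egr1 and Atf3), where 1.65% of all genes were. As for the interferon genes, Clone E was high and M and the parental tumour were low, and the part of handling in that result was not tested.

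Genes of dividing cells were highest in EM3 as a list, and 12 of the 19 were so singly. When the cells were clustered, as given below, those led by division genes numbered 3, 3, 8, 5, 3 and 5. The tumours held 68, 48, 147, 37, 54 and 98 endothelial cells. That subcluster rests on the same genes, so its counts are no separate support for the list level. Top2a, which untangles replicated DNA, stood at 85 CPM for Clone E, 91.7 for EM1, 53.1 for EM2, 272 for EM3, 90.6 for M and 31.6 for the parental tumour, with EM3 (212 to 345) above all others. Mki67, the proliferation antigen, stood at 37.4, 73.3, 54, 118, 61.7 and 32.4 CPM, and the mitotic kinase gene Cdk1 at 23.8, 73.3, 59.6, 110.5, 61.7 and 29.8 CPM. In EM3 1 cell held 25% of the Cdk1 UMIs. Of 9 division genes compared between EM3 and E, 5 were higher in EM3 (Mki67, Top2a, Cdk1, Birc5 and Mcm2), where 3.01% of all genes were, with a median of 1.44 over the list, and the same 5 without the mixed cells. Between M and E 2 of 7 were higher in M (Cdk1 and Mcm2), where 2.89% of all genes were. The level of the list was 5.12, 5.40, 5.21, 5.93, 5.53 and 4.70, lowest in the parental tumour.

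Adhesion genes for leukocytes, apart from the selectins, were near level. Icam1, a ligand of leukocyte integrins, stood at 1206, 976, 1014, 765, 1068 and 1029 CPM, and Vcam1, another, at 279, 394, 287, 284, 316 and 311 CPM. Of 9 adhesion genes 0 were called between M and E and 0 of 9 between EM3 and E, while 2 (Sele and Selp) of 9 were higher in EM2 than in EM1, where 3.75% of all genes were. Neutrophil chemokines were low in EM3: Cxcl1 stood at 1039.9, 986, 951, 264, 690.4 and 2008 CPM, with 205 to 336 as the interval in EM3. Cxcl2 was highest in Clone E, at 1319 CPM, and at 632 CPM without the mixed cells. Ccl2, which draws in monocytes, stood at 421, 156, 253, 98.6, 351 and 511 CPM, lowest in EM3. Of 9 chemokine genes compared between EM3 and E, 6 were lower in EM3 (Cxcl1, Cxcl2, Cxcl9, Cxcl10, Cxcl16 and Ccl2) and 1 higher (Ccl7), where 5.08% of all genes were lower and 3.01% higher, with a median of -1.32 over the list. When the mixed cells were left out, 5 of 8 were lower and 0 higher, with Cxcl16 and Ccl7 no longer called and a median of -2.07, where 4.87% of all genes were lower and 3.14% higher. As a list, their level in EM3 minus that in E was -0.89. It was -0.26 over members with no UMI of Ptprc, Epcam or Col1a1, which numbered 20 in EM3 and 30 in E. The granulocyte markers, given above, were also lower in EM3 than in Clone E, with and without the mixed cells, and their part in the result was not tested. Between M and E 2 of 10 were lower in M (Cxcl2 and Cxcl9) and 1 higher (Cx3cl1), where 4.79% of all genes were lower and 2.89% higher. Without the mixed cells 5 were lower (Cxcl1, Cxcl2, Cxcl9, Cxcl16 and Ccl2) and 0 higher, where 5.61% of all genes were lower and 3.07% higher.

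The scaffold of the vessel wall was abundant and near level. Col4a1, a collagen IV chain of the basement membrane, stood at 10279.6, 13504, 12429, 14050.2, 12400.0 and 10802 CPM, Sparc, a matrix-binding protein, at 8706, 11753, 11228, 11762, 10522 and 9635 CPM, and Hspg2 (perlecan) at 1485, 2388, 2129.7, 2099, 2087 and 1765 CPM, all lowest in Clone E. Of 15 basement membrane genes, 0 were called between M and E, 0 between EM3 and E, and 1 (Lamb2, higher in EM2, where 3.75% of all genes were) between EM2 and EM1. Col15a1, a collagen of vessel walls, was lowest in the parental tumour at 447 CPM (95% interval 409 to 488), against 971 to 1504 CPM in the clones. Of the junction genes, 3 of 12 were lower in EM3 than in E (Cldn5, Gja4 and Jup), where 5.08% of all genes were, 1 of 13 was lower in M than in E (Gja5), where 4.79% of all genes were, and 0 of 12 were called between EM2 and EM1. Gja1, a connexin gene, lay between 2079 and 2681 CPM. Id1 and Id3, targets of BMP signals, were the genes called lower, of 12 compared, both in M and in EM3 than in E, where 4.79% and 5.08% of all genes were. Without the mixed cells Id1 and Id2 were called lower in M, where 5.61% of all genes were, and none of the list in EM3. Id1 stood at 245, 179, 76.3, 98.6, 61.7 and 117 CPM, highest in Clone E. Eng, a coreceptor of that pathway, stood at 1346, 1316, 1485, 1921, 1629.6 and 1361 CPM, highest in EM3.

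Genes of vascular tone and clotting differed for single members. Procr, the endothelial protein C receptor, was highest in the parental tumour at 950.3 CPM (95% interval 895 to 1009), against 309 to 592 CPM in the clones, over all annotated cells. Without the mixed cells it stood at 545 CPM in the parental tumour, and the values of the clones in that set are not given here. Ednrb, an endothelin receptor gene, was also highest there at 227 CPM (95% interval 200.2 to 256), and was called lower in M and in EM3 than in E, at 129, 45.8, 90.3, 47.3, 42.4 and 227 CPM in the 6 tumours. Ace, the angiotensin converting enzyme, was highest in the parental tumour at 349 CPM (95% interval 315 to 385) and lowest in EM1 at 101 CPM (95% interval 63.2 to 153). Between M and E 1 of 13 members was lower, between EM3 and E 1 of 13, and between EM2 and EM1 1 of 13 was higher (Ace), against 4.79%, 5.08% and 3.75% of all genes. Leaving out the mixed cells, 2 were lower in M (Ednrb and Nt5e) and 1 higher (Plat), 2 were lower in EM3 (Ednrb and Thbd) and 1 higher (Vwf), each of 13, and 0 were higher in EM2, so that Ace was no longer called. The shares of all genes in those sets were 5.61% lower and 3.07% higher in M, and 4.87% lower and 3.14% higher in EM3. Glycolysis and hypoxia genes were close: Ldha, the lactate dehydrogenase, stood at 387, 536, 578, 418, 594 and 587 CPM, and Adm was the called gene among 12 between M and E and among 11 between EM3 and E, where 2.89% and 3.01% of all genes were higher. Vegfa was called lower in M as well without the mixed cells, where 5.61% of all genes were.

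**Figure D5:**
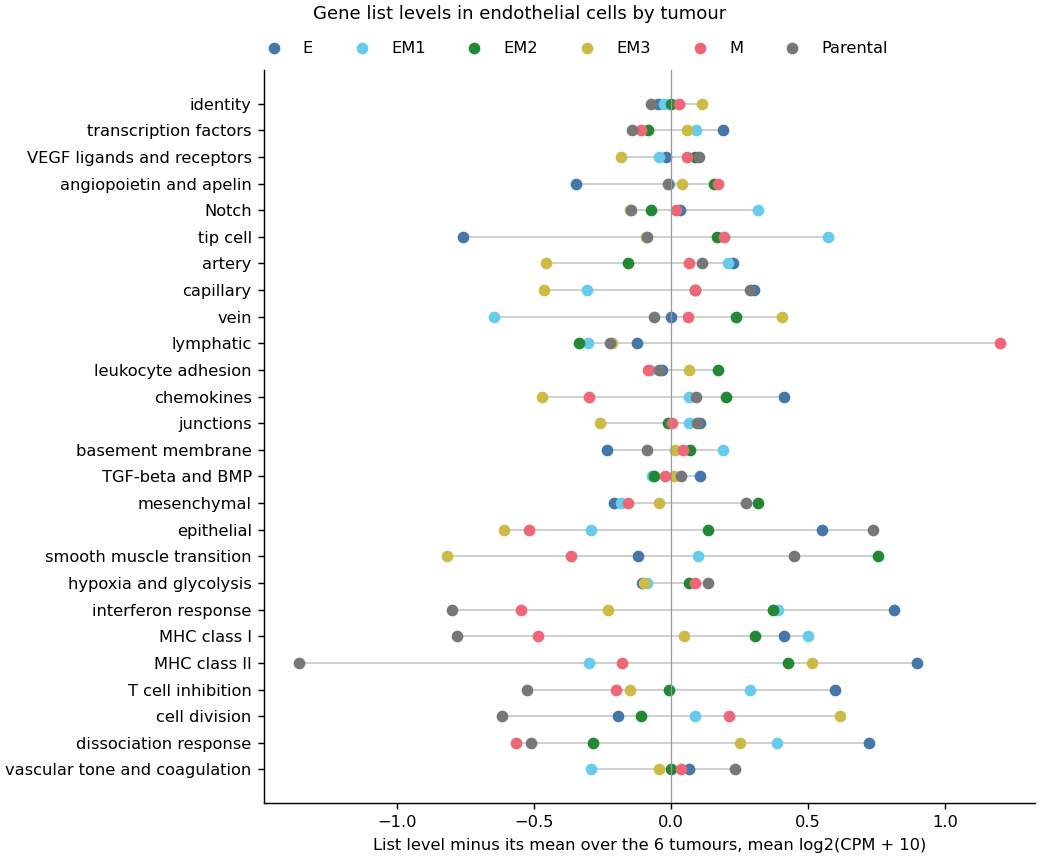
Level of 26 gene lists in endothelial cells, as the mean log2(CPM + 10) of a list minus its mean over the 6 tumours, 1 point per tumour. Over all annotated cells, the identity list spans 0.19, the tip cell list 1.33, the interferon list 1.61 and the MHC class II list 2.25 on the log2 scale.

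Over all genes, 149 of 5156 were called higher and 247 lower in M than in E, and 245 genes were called both with and without the mixed cells. Ccl21a and Mmrn1, the lymphatic genes given above, were at 0 in Clone E and came mostly from 1 cell in M. Among the other genes with high ratios in M were Pmaip1 (Noxa, a death-promoting protein) with a log2 ratio of 2.49 and 2.82 without the mixed cells, Esm1 with 2.45 and 2.53, Angpt2 with 2.25 and 2.24, and the costimulatory receptor gene Tnfrsf9 (4-1BB) with 2.22 and 2.5. Pmaip1 stood at 109, 266, 288, 383, 658 and 289 CPM, and Tnfrsf9 at 71.4, 238, 221, 299.9, 370.3 and 237 CPM. Krt20, a keratin, stood at 86.8 CPM (95% interval 63.3 to 116) in M against 10.2 CPM (95% interval 2.1 to 29.8) in E, the cell cycle inhibitor gene Cdkn2b at 52.1 CPM (95% interval 34.3 to 75.8) against 3.4 CPM (95% interval 0.086 to 18.9), and the ribonuclease gene Rnase1 at 54 CPM (95% interval 35.9 to 78) against 3.4 CPM (95% interval 0.086 to 18.9). Postn, a matrix protein of fibroblasts, had a log2 ratio of 2.95 that was 0.33 without the mixed cells. Lower in M were Cxcl9 with -4.14, Hspa1b with -3.51 (-2.51 without the mixed cells), Hspa1a with -3.28 (-2.48), the short-chain collagen gene Col8a1 with -2.71, Gbp4 with -2.57, the ubiquitin-like gene Ubd with -2.41, Gvin1 with -2.36 and Gbp7 with -2.31. In Clone E 54.3% of the Col8a1 UMIs and 73.8% of the Ubd UMIs came from 1 cell. The ratio of the matrix inhibitor gene Mgp was -2.39 and turned to 1.14 without the mixed cells, and that of Igfbp5 went from -2.54 to -0.50.

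In EM3 155 of 5142 genes were called higher and 261 lower than in E, with 254 called in both sets of cells. Higher were Antxr1, an anthrax toxin receptor that marks tumour vessels, with a log2 ratio of 2.01, the translocon subunit gene Sec61b with 2.01, Tnfrsf9 with 1.93, Ddah1, which breaks down an inhibitor of nitric oxide synthesis, with 1.90, Cdk1 with 1.83, the mitotic gene Pimreg with 1.93 and the snoRNP gene Dkc1 with 1.78. Antxr1 stood at 23.8, 50.4, 88.4, 126, 59.8 and 66.6 CPM and Ddah1 at 34, 68.8, 61.4, 154, 112 and 53.5 CPM. Slc4a1ap and Slco4a1 had ratios of 2.07 and 1.76. That of the Golgi enzyme gene Man2a2 was 2.48, and 0.84 without the mixed cells. Lower were Ubd with -3.60, the sulfatase gene Sulf1 with -2.60 (-1.91 without the mixed cells), elastin (Eln) with -2.60, Cxcl9 with -2.40, Cxcl10 with -2.28, Polg2 with -2.24 (-1.56 without them) and Oasl2 with -2.07. Mmp12, a macrophage elastase, had -4.16, and -0.80 without the mixed cells.

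In EM2 189 of 5038 genes were called higher and 83 lower than in EM1, and without the mixed cells 127 (2.62%) and 96 (1.98%) of 4852. Nts, which encodes the peptide neurotensin, had a log2 ratio of 3.34 and stood at 44.2, 4.58, 138, 158, 84.9 and 282 CPM, highest in the parental tumour (252 to 315). Ackr1 followed with 2.37, Selp with 2.18, Depp1, a target of FOXO factors, with 2.06, the heme oxygenase gene Hmox1 with 2.04 and Cd300lg with 1.86, the last at 2.7 without the mixed cells. Hmox1 stood at 2324, 623, 2592, 2004, 2742 and 3429.6 CPM, with EM1 alone low (523 to 737). The matrix gene Tnc had 2.33, and 1.17 without the mixed cells, and the chaperone gene Cryab 2.29 and 0.35. Haemoglobin genes were at 125 CPM (Hba-a2) in EM2, 96.3% of it from 1 cell, and at 0 in EM1. Lower in EM2 were Rnase1 with -2.62, Slc16a13 with -1.81, Clic5 with -1.80, Nup210 with -1.69, Kcne3 with -1.67, Klf2 with -1.60, Eva1a with -1.57 and Sept1 with -1.54. Igfbp5 had -3.03, but 100.0% of its UMIs in EM1 came from 1 cell.

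Over the 6 tumours together, the widest ranges of log2(CPM + 10) were those of Rgs5 (5.16), Mmp12 (5.10), Ccl21a (4.63), Rgs1 (4.41), Nts (4.32), Cxcl9 (4.14), Igfbp5 (4.10), Ubd (3.88), Plac8 (3.84), Hba-a2 (3.75), Hbb-bs (3.72) and Ighm (3.59). Several of these are genes of other cells. Rgs5, of pericytes, stood at 30.6, 183, 294, 0, 88.7 and 347 CPM and at 33.3, 0, 36.6, 0, 3.05 and 9.11 CPM without the mixed cells. Mmp12 stood at 802, 13.8, 14, 35.5, 700.0 and 50 CPM, and 1 cell held 83.1% of its UMIs in Clone E and 97% in M. Ighm, of B cells, stood at 110.5 CPM in EM3, all from 1 cell.

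The endothelial cells varied among themselves as well as between tumours. Clustering the pooled 452 cells gave 8 subclusters, whose leading genes are given with their log2((CPM + 10) ratio) to the other endothelial cells as a description without a test. The largest, with 103 cells, was led by Esm1 (2.20, a UMI in 79.6% of its cells) and included Adm, Apln, Nid2, Pgf, Angpt2 and Cxcr4 among its 25 leading genes, and is called tip cell-like. A subcluster of 86 cells was led by Col3a1 (4.72) but also by the venule genes Sele (3.55) and Selp (3.38) and stays unnamed. Immediate early genes led 76 cells, with Fos at 2.83 and Klf2 at 2.73. A group of 73 cells with a median of 920.0 UMIs, against 6691 in the tip cell-like cells, was led by the lymphatic genes Ccl21a (7.01), Mmrn1 (4.99), Reln (3.68), Prox1 (3.31) and Lyve1 (3.27). These had UMIs in 1.4% to 4.1% of its cells, while mt-Nd6 (2.65), the first of several mitochondrial genes, had them in 74%, and the group stays unnamed. Interferon-induced genes led 32 cells, with Cxcl9 at 3.28, Gbp4 at 2.39 and Iigp1 at 2.24, and Gbp2 was found in 100.0% of them. Pgf was also among their 25 leading genes (1.86), at 1293 CPM against 872 CPM in the tip cell-like cells. Their tip cell markers summed to 10575 CPM, against 13248 CPM in the tip cell-like cells, so the 2 groups are not separate in these genes. Of the 14 markers, 1 was at least 2-fold higher in the interferon-led cells than in the other endothelial cells. Division genes led 27 cells, with Mki67 at 3.60 and Top2a at 3.51, and 31 and 24 cells were led by macrophage and by tumour cell genes.

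At a finer setting, 11 subclusters were found, and 27 cells that expressed Sele (4.79), Selp (4.04), Ackr1 (3.63), Vwf (3.01) and Lrg1 (2.54) separated as vein-like. Selp had a UMI in 92.6% of these cells. They also carried Il6 (2.78) and Csf3 (2.77, in 96.3% of the cells), the growth factor of granulocytes. The granulocyte markers summed to 4078 CPM in these cells against 859.8 CPM in the other endothelial cells, and 5 of the 6 were at least 2-fold higher; their part in the result was not tested. Another 41 cells carried the capillary genes Cd300lg (2.75), Fabp4 (2.40) and Cd36 (2.21), with 8 of the 12 capillary markers at least 2-fold higher. Haemoglobin genes such as Hba-a2 (5.54) were also high in their sum, but most Hba-a2 UMIs of EM2, as given above, came from 1 cell. These 41 cells also carried T cell genes such as Pdcd1 (3.79, in 17.1% of the cells), and stay unnamed. Sizes of the subclusters were not compared between tumours, since the genes that define them differ between tumours.

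Relations over the 6 tumours were computed for a family of 6 pairs, with two-sided exact permutation tests over all 720 orders and Benjamini-Hochberg adjustment. The EMT score of the tumour cells, given by the level of the mesenchymal list from which that of the epithelial list was subtracted, was -1.98, 1.22, 2.02, 3.39, 2.47 and 0.93. None of the 6 relations passed. Each r was also taken over 4 tumours, without the 2 whose value of the second-named measure lay farthest from its median. The endothelial share with the EMT score gave r = -0.05 (exact permutation p = 0.918, adjusted 0.971) and rho = -0.43 (exact permutation p = 0.419, adjusted 0.919). The tip cell level with the EMT score gave r = 0.64 (exact permutation p = 0.175, adjusted 0.788) and rho = 0.26 (exact permutation p = 0.658, adjusted 0.919). That value rested on Clone E, without which r was -0.36, and without Clone E and EM3 together r was 0.05. The share with Vegfa of tumour cells gave r = -0.30 (exact permutation p = 0.572, adjusted 0.971) and rho = -0.09 (exact permutation p = 0.919, adjusted 0.919), and r was 0.20 without EM1 and EM3.

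The share with the fibroblast share gave r = 0.56 (exact permutation p = 0.263, adjusted 0.788) and rho = 0.43 (exact permutation p = 0.419, adjusted 0.919), and r was 0.67 without EM1 and the parental tumour. The tip cell level with Vegfa of tumour cells gave r = -0.01 (exact permutation p = 0.971, adjusted 0.971) and rho = -0.31 (exact permutation p = 0.564, adjusted 0.919), and r was -0.87 without EM1 and EM3. The leukocyte adhesion level with the share of T and NK cells among immune cells gave r = -0.17 (exact permutation p = 0.731, adjusted 0.971) and rho = 0.14 (exact permutation p = 0.803, adjusted 0.919), and r was 0.91 without Clone E and EM1. For the endothelial share with the EMT score, r without Clone E and EM3 was -0.13. These were left out as the farthest on the EMT score, and not for their shared barcodes. Each set of tumours with shared barcodes held too few for a value of its own.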

How the data were processed

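The labels name a fixed-RNA preparation kit and also 3′ v3.1 reagents, so they do not settle the chemistry. The cell barcodes of every library ended in a sample tag, of 1 kind per library. Tumours were digested with collagenase and hyaluronidase before capture, per the labels' protocols. The authors deposited raw UMI counts per gene and cell, whole numbers without normalization, with cells filtered beforehand by limits that differed between libraries. Per the file headers, a deposited table per library gives the counts of each cell (UMIs, genes), the percent of mitochondrial UMIs and the annotation. Cell Ranger and mm10 are named in the submitters' processing notes, with no version, and how reads were counted is not given in the sources used here. The tables of the unenriched libraries hold 19369 genes, of which 56 carry retired identifiers in place of names. For 55 of these, a row under the gene's name is also present. Values given here for a named gene are those of the named row alone. Those of the libraries enriched for CD45 hold 18574 genes. Mmrn2, Notch4, Eno1 and Nos3 were not analysed here. Some genes that the naming rule selects are not reported here.

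Counts were summed over the endothelial cells of each tumour and scaled to CPM, and a list level is the mean log2(CPM + 10). Doublets were called per library by the Scrublet method, 2506 of 115612 cells (2.168%), and left out of shares. A gene at the floor of 50 CPM had 10.9 to 57.0 UMIs behind it. Because each group held 1 tumour, fold rules stood in for tests. Named genes were those of fixed lists, the 15 with the widest margin over other classes, the 10 highest and 10 lowest per comparison that were above the rest of the library, and the 12 with the widest range. The members, lists and marker genes were chosen with earlier results of these data known. Subclusters came from Leiden clustering run with 1000 variable genes, 10 neighbours and 15 components at a resolution of 0.5 (0.25 and 1.0 as alternatives), using leidenalg 0.10.2 with igraph 0.11.9, scikit-learn 1.9.0, numpy 2.4.6, scipy 1.17.1 and pandas 2.3.3 on Python 3.11.15. The computations were tested on simulated data. Alternatives covered doublets, the pseudocount, the floor, scaling, weighting of cells, the definition of members and leaving out each tumour. The doublet alternative could not change endothelial levels or fold calls, since no endothelial cell was called a doublet.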

Additional observations from a re-analysis of the deposited data

Results flagged for a closer look

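The libraries enriched for CD45 entered no comparison above, and yet a few of their cells had UMIs of at least 2 of Pecam1, Cdh5, Kdr and Egfl7 and none of Ptprc, above the limit that a count of 0 allows. They were 0.0565% (6 of 10617 cells) for Clone E, 0.0896% (8 of 8932 cells) for EM2, 0.0835% (9 of 10776 cells) for EM3, 0.0801% (6 of 7495 cells) for M and 0.0747% (5 of 6696 cells) for the parental tumour. EM1 had 1 such cell of 9258, under that limit of 3 counts, and its difference from the others was not tested. None of these cells had UMIs of 3 or more of the markers. By the same definition, annotated immune cells of the unenriched libraries gave 0.0473% to 0.214%, and the 95% Clopper-Pearson intervals of both kinds of library overlapped in all 6 tumours. The cells are therefore not told apart from that background and are not read as endothelial. The median depth over all cells of the 6 enriched libraries ran from 1557 to 3453 UMIs.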

How the results depend on the processing

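No paired analysis was possible because each group held 1 tumour. Of the values recomputed for list levels 115 moved by less than their counting interval, 37 by more and 2 changed sign. The 115 include values that could not move, since keeping called doublets added 0 endothelial cells in every tumour. They also include values scaled by size factors, which were 0.986 to 1.007 of the UMI sums. The count of 115 is therefore no measure of stability. Members restricted to those without Ptprc, Epcam or Col1a1 numbered 30 in Clone E, 20 in EM3 and 27 in M. With them the cell division level of M minus E turned to -0.011 and the capillary level to 0.087. The tip cell level of M minus E was 0.95 and became 1.22 with cells weighted alike and 1.13 with the restricted members, and that of EM3 minus E went from 0.67 to 1.10 with cells weighted alike. The interferon level of M minus E was -1.36, and -1.65 with a pseudocount of 1, -1.0 with cells weighted alike and -1.54 with the restricted members. That of EM3 minus E was -1.05, and -1.29, -0.72 and -1.71 under the same choices. With a floor of 100 CPM, 188 genes were called between M and E in place of 396, and 190 between EM3 and E in place of 416, as fewer genes were compared. Of cells not annotated as tumour the share was 1.28% in EM1, 2.28% in EM2, 0.638% in M and 2.12% in the parental tumour, and by markers alone it was 0.838% in M and 1.28% in the parental tumour. The correlation of share and EMT score turned to 0.022 over cells not annotated as tumour. Leaving out each tumour gave r from -0.44 to 0.23 for it, -0.78 to -0.0031 for share and Vegfa, 0.34 to 0.77 for share and fibroblasts, -0.36 to 0.85 for tip cell level and EMT score, -0.35 to 0.15 for tip cell level and Vegfa, and -0.45 to 0.26 for adhesion and T and NK cells. The causes of these shifts were not tested. Depth limits the genes of EM1, EM3 and Clone E most, where 1 UMI is worth 4.58, 3.95 and 3.4 CPM.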
